A study of Mus musculus with 6 samples.

Results

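NF-kappaB and TNF signalling genes were followed in mouse glomeruli, the filtering units of the kidney, with and without Klf4 in podocytes. The set holds 37 genes chosen by symbol from the 24035 named rows of the deposited table, and all 37 were found. It covers ligands, receptors, adaptors, kinases, NF-kappaB subunits, their inhibitors and products induced by TNF. RNA was sequenced from glomeruli that had been loaded with iron oxide by perfusion and collected with a magnet after enzymatic digestion. All mice were of the FVB/N strain and carried floxed Klf4 alleles (Klf4 fl/fl). The labels give no other allele for the 3 control libraries, and the 3 knockout libraries were Podocin-Cre Klf4 fl/fl, in which a podocin promoter drives Cre recombinase in podocytes, the epithelial cells that cover the glomerular capillaries. The labels give no age, no treatment and no group with Cre alone, so Cre and loss of Klf4 cannot be told apart. They do not say that each library came from its own mouse, so p-values cover the spread among these libraries only, and some of it may be technical.

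NF-kappaB proteins are dimeric transcription factors that are held in the cytoplasm by IkB proteins. In the canonical branch, TNF, interleukin-1 and Toll-like receptors act through adaptor proteins and the IKK kinases, which mark IkB proteins for degradation and so release dimers that hold Rela and the Nfkb1 product. In the non-canonical branch, receptors such as CD40 and Fn14 lead to processing of the Nfkb2 product, which pairs with Relb. Many target genes encode parts of the pathway itself, among them IkB proteins, TRAF adaptors and the ubiquitin-editing enzyme A20. In kidney, these genes are active in resident cells and in infiltrating leukocytes.

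Klf4 had 21.5, 44.3 and 49.8 RPKM in the controls and 29.4, 40.3 and 41.4 RPKM in the knockouts, given here and below in the order of replicates 1 to 3. RPKM is the read count of a gene scaled by its length and by the depth of the library. The groups overlapped (log2 change 0.02, SE 0.31, limma adjusted p = 0.979), which does not check the labels, since cells other than podocytes keep the gene. Counted reads were 38936993 to 58272424 per library. Podocyte markers fell in 8 of 12 cases by the same test (66.7%, against 3.48% of all genes tested) and none rose. Their summed level was 3292 to 6337 RPKM in controls and 969.6 to 2424 RPKM in knockouts. Macrophage and leukocyte markers rose in 12 of 15 tested (80.0%, against 9.98% of all genes tested) and none fell. Of the 13 at 0.5 RPKM or more in both groups 11 rose (84.6%, against 7.98% of all such genes). Their sums were 82.4 to 95.1 RPKM in controls and 444 to 1041 RPKM in knockouts. Parietal epithelial markers, of the cells that line the capsule around the glomerulus, rose in 8 of 10 (80.0%) and none fell. By the same limit 7 of 9 rose (77.8%), and their sums were 72.9 to 85.4 and 254.0 to 499 RPKM. In RNA from whole glomeruli, fewer cells of a type and less RNA per cell cannot be told apart.

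Of the 37 genes, 36 passed the expression filter (0.5 RPKM or more as a mean of all 6 libraries), and Tnfrsf11b did not. By limma on log2(RPKM + 0.5), 16 rose in knockout glomeruli, 1 fell and 19 did not pass the threshold of 0.05 on the adjusted p. Of all 13912 genes tested, 9.98% were called higher and 3.48% lower, and 13.5% in either direction, against 44.4% and 2.78% of the 36. The knockout libraries lay wholly above the controls for 21 of the 36 (58.3%, against 23.7% of all genes tested) and wholly below for 1 (2.78%, against 11.4%). The median log2 change of the 36 was 0.51, and that of all tested genes was 0.097. Tnf, Tnfrsf9 and Il1rn passed the filter through their knockout libraries alone, so they had to differ, and all are among the 21. Without them 13 of 33 were higher (39.4%) and 1 lower (3.03%). Of all genes at 0.5 RPKM or more in both groups, 7.98% were called higher and 3.43% lower. The median log2 change of the 33 was 0.46, and that of all such genes was 0.08.

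The changes were uneven within the set. Of the 16 higher genes, 10 rose at least 2-fold on mean RPKM, Tnf, Tnfrsf9 and Il1rn among them. Of 15 alternative analyses, Tnfrsf12a, Traf1, Tlr2, Icam1, Nfkbiz and Ikbke kept the call in all, and 8 of the 16 lost it in at least 1. Il1rn also kept it in all 15, and Tnfrsf9 in the 13 that tested it. Tnfrsf9 was not tested with the filter at 2 RPKM or without knockout replicate 2. Il1rn and Tnfrsf9 passed the main filter through knockout libraries alone, so keeping the call adds no support for them. The number of higher genes was 7 without knockout replicate 2, 10 without control replicate 1 and 10 without control replicate 2. Calls fell over all genes too, from 1389 higher to 474, 839 and 912 in the same order. Knockout replicate 2 held the highest level of 13 of the 16, and knockout replicate 3 of the other 3. The 16 include Tnf, Tnfrsf9 and Il1rn. The like share over all higher genes was not computed, so these counts cannot be read as particular to the set. Knockout replicate 2 was also the library with the highest macrophage and leukocyte sum, 1041 RPKM, and the lowest podocyte sum, 969.6 RPKM. The part of these cell markers in the changes below was not tested.

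**Figure D1:**
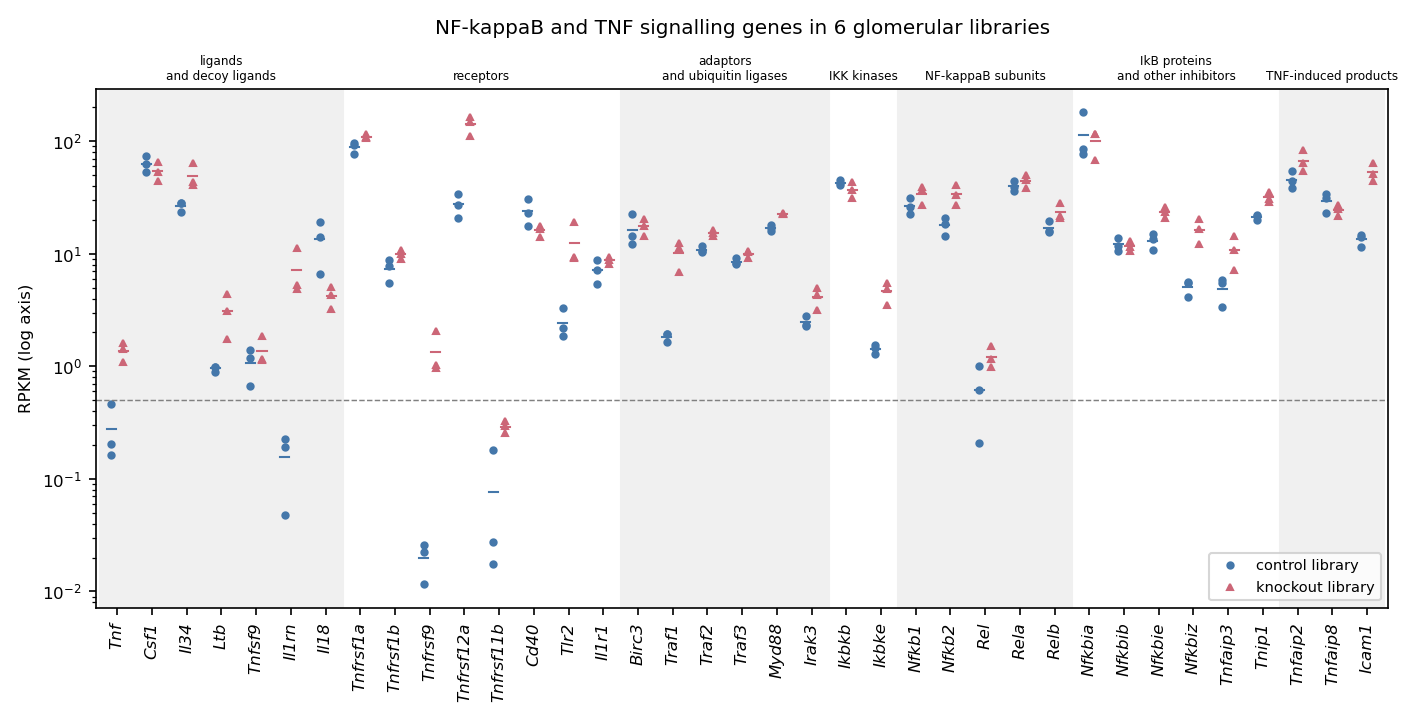
RPKM on a log axis for each of the 37 genes, grouped by role, with 1 point per library and a short line at each group mean; the dashed line is the filter of 0.5 RPKM. The groups are far apart for Il1rn, Tnfrsf9, Tnfrsf12a, Traf1, Tlr2 and Icam1, and they overlap for Nfkbia, Nfkbib, Ikbkb and Rela.

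Before the values, the promoters give the setting, since several of these genes are known NF-kappaB targets. RefSeq promoter windows (250 bases before to 50 after a start, GRCm38.p6) were at hand for 28 of the 37 genes. The kappaB consensus, the sequence that NF-kappaB dimers bind, was searched on both strands. It was found in at least 1 window of 12 of the 28 genes (42.9%), of 663 of 10321 genes tested with a window (6.42%) and of 1388 of 27025 genes in the whole table (5.14%). The share was the same among members that rose (6 of 14, 42.9%) and among the other members (6 of 14, 42.9%). Genes that rose and hold a match were Tlr2, Tnfrsf9, Tnip1, Ltb, Nfkbie and Nfkb2. Genes with a match that did not pass the test were Il1r1, Csf1, Tnfaip3, Rel, Nfkbia and Traf3. A match is a description of letters in this window and not evidence of binding.

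The 250 bases before the start are shown for 4 genes that rose (Tnip1, Nfkb2 at its first listed start, Tlr2 and Tnfrsf9) and for 2 that did not pass (Nfkbia and Rel), so that the matches can be compared. Sequences read 5′ to 3′ on the gene's strand, and capitals mark the bases covered by consensus matches, which overlap each other in Tnip1, Nfkb2, Tlr2, Tnfrsf9 and Rel.
Tnip1 (chr11:54962941-54963190, minus strand): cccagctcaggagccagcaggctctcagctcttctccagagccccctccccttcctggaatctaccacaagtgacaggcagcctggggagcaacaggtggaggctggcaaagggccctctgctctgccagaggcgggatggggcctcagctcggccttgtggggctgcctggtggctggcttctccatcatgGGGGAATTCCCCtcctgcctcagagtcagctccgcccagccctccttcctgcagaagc
Nfkb2 (chr19:46304487-46304736, plus strand): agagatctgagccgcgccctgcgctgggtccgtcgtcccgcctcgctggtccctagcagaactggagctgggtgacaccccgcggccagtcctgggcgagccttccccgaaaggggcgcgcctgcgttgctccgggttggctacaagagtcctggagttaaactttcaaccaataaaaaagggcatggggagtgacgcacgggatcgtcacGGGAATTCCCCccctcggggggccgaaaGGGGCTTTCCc
Tlr2 (chr3:83841609-83841858, minus strand): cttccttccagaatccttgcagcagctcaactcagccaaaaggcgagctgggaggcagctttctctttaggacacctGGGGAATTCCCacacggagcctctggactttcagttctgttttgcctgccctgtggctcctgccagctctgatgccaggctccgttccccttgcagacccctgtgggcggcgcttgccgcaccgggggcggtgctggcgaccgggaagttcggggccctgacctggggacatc
Tnfrsf9 (chr4:150927749-150927998, plus strand): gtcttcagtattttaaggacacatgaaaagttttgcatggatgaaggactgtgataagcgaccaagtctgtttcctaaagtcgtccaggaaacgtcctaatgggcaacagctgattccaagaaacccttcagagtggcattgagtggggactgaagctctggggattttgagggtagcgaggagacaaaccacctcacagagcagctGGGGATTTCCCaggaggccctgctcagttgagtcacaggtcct
Nfkbia (chr12:55492648-55492897, minus strand): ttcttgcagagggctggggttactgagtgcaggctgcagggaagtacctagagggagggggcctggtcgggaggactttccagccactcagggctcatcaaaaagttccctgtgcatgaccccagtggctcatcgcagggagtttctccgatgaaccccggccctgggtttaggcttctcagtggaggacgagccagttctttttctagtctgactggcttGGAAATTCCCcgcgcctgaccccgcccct
Rel (chr11:23770970-23771219, minus strand): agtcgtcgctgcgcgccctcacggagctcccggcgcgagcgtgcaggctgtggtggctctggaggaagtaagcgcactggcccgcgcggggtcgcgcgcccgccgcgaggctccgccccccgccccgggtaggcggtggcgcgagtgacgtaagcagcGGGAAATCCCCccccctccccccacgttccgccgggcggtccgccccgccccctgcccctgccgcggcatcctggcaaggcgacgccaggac
The match in Tnip1 began at position -58, that in Tnfrsf9 at -43 and that in Nfkbia at -29 from the start. In Nfkb2 an overlapping pair began at -39 and a separate match at -11. The matches in Rel began at -92 and in Tlr2 at -173, and the Tlr2 window has another at -8 that runs across the start and is not capitalised. Genes that rose and genes that did not pass both had matches close to the start.

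**Figure D2:**
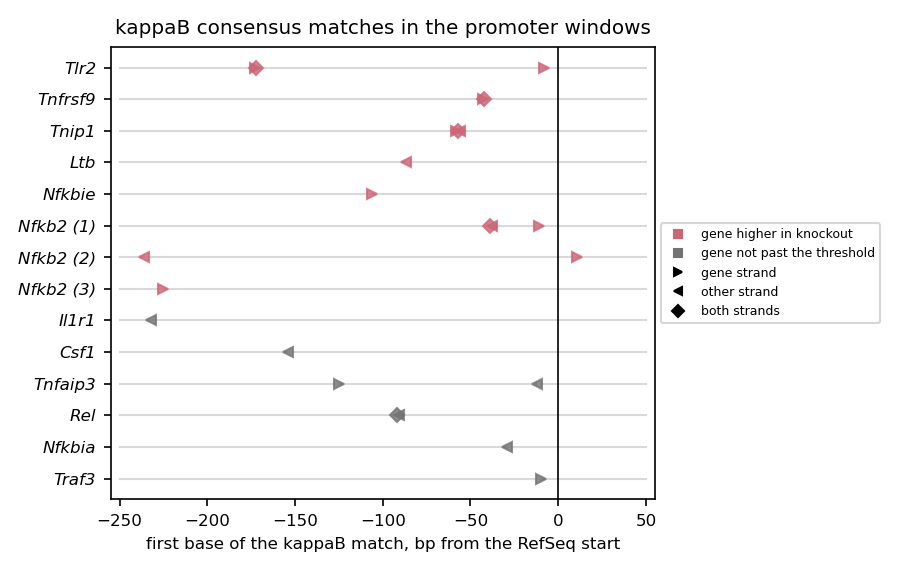
Position of each kappaB consensus match, in bp from the RefSeq start, in the windows of the 12 genes that hold one; symbols give the strand and colours give the test result. Nfkb2 has 3 windows with a match, and overlapping matches lie on top of each other.

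Counts by role, here and below, stand beside 9.98% of all genes tested called higher and 3.48% called lower. Where all genes counted had 0.5 RPKM or more in both groups, the like shares are 7.98% and 3.43%. That holds for counts without Tnf, Il1rn and Tnfrsf9 and for every role after the receptors. Among the 7 ligands and decoy ligands, 4 rose, 1 fell and 2 did not pass. Without Tnf and Il1rn, which passed the filter through knockout libraries alone, 2 of 5 rose and 1 fell (median log2 change 0.26). Il1rn, which encodes the interleukin-1 receptor antagonist, had 0.192, 0.226 and 0.0477 RPKM in controls and 5.27, 11.2 and 4.91 RPKM in knockouts. All knockout libraries were far above all controls, and knockout replicate 2 was highest. The mean rose 45.8-fold, from 0.155 ± 0.0948 to 7.11 ± 3.50 RPKM (SD, n = 3), with a log2 change of 3.46 (SE 0.31, limma adjusted p = 0.00206). It was the largest change of the set on the log2(RPKM + 0.5) scale, while Tnfrsf9 had the larger ratio of mean RPKM, 68.3, and the larger log2 change by voom, 5.67 against 5.55 for Il1rn. The values rested on 21, 32 and 5 reads in controls and 2635 in knockouts, and per counted read the knockout level was 41.6 times that of controls (exact 95% interval 32.1 to 54.9, counting error only).

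Tnf, the cytokine that names the pathway, was low throughout, at 0.164, 0.461 and 0.202 RPKM in controls and 1.10, 1.44 and 1.61 RPKM in knockouts. The groups did not overlap, and the mean rose 5.02-fold (log2 change 1.29, SE 0.22, limma adjusted p = 0.0122). These levels correspond to 11, 40 and 13 reads in controls and 82, 97 and 155 in knockouts, and the call was lost without knockout replicate 2 (adjusted p up to 0.0581 over the alternatives). Ltb, which encodes lymphotoxin beta and lies 3061 bp from Tnf on chromosome 17, stood at 0.899, 0.991 and 0.985 RPKM in controls and 1.76, 4.39 and 3.09 RPKM in knockouts. It rose 3.21-fold (log2 change 1.23, SE 0.28, limma adjusted p = 0.0309). That call was lost under quantile normalization, with no filter, with replicate number as a block and without any single library except knockout replicate 1.

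Il34 and Csf1 encode the ligands of the CSF1 receptor, which sustains macrophages. Il34 stood at 28.0, 23.3 and 28.3 RPKM in controls and 40.9, 64.3 and 43.5 RPKM in knockouts, with no overlap. It rose 1.87-fold (log2 change 0.87, SE 0.19, limma adjusted p = 0.0274). That call was lost with replicate number as a block and without any single control library or knockout replicate 2. Csf1 overlapped between the groups, at 63.4 ± 10.3 and 54.2 ± 10.2 RPKM (log2 change -0.23, 95% interval -0.66 to 0.20, limma adjusted p = 0.439). Tnfsf9, the ligand of the Tnfrsf9 receptor, overlapped too, at 1.08 ± 0.375 and 1.38 ± 0.411 RPKM.

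Il18, a cytokine of the interleukin-1 family, was the gene that fell. The controls had 19.2, 14.2 and 6.67 RPKM, and the knockouts had 5.10, 3.20 and 4.30 RPKM. The groups did not overlap, and control replicate 3 lay closest to the knockouts. The mean was 3.18-fold higher in controls (log2 change -1.46, SE 0.36, limma adjusted p = 0.0393). The call was lost with no filter, with replicate number as a block and by voom on recovered reads. It was also lost without any single library except control replicate 3, and the limma adjusted p ranged over 0.014 to 0.154.

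Of 8 receptors, 7 were tested, and 3 rose, 0 fell and 4 did not pass; 2 of 6 rose without Tnfrsf9, which passed the filter in the same one-sided way. Tnfrsf12a encodes Fn14, the receptor of the cytokine TWEAK. It stood at 34.3, 27.2 and 21.0 RPKM in controls and 111, 164 and 149 RPKM in knockouts. Every knockout library was over all controls, and the mean rose 5.13-fold, from 27.5 ± 6.68 to 141 ± 27.6 RPKM (log2 change 2.35, SE 0.22, limma adjusted p = 0.00206). In controls it ranked 8 among the 37 genes by mean RPKM, and in knockouts it ranked 1.

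Tlr2, a receptor for bacterial lipoproteins, stood at 1.87, 3.29 and 2.19 RPKM in controls and 9.16, 19.0 and 9.27 RPKM in knockouts. The groups did not overlap, knockout replicate 2 was well above the other knockouts, and the mean rose 5.09-fold (log2 change 2.08, SE 0.31, limma adjusted p = 0.00796). Tnfrsf9, a costimulatory receptor of activated lymphocytes, was nearly absent from controls, with 2, 3 and 1 reads, and had 98, 187 and 132 reads in knockouts. Per counted read the knockout level was 63.6 times that of controls (exact 95% interval 29.0 to 174, counting error only). In RPKM it was 0.0222, 0.0257 and 0.0116 against 0.975, 2.07 and 1.02 (log2 change 1.79, SE 0.26, limma adjusted p = 0.00698).

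The TNF receptors themselves did not pass. Tnfrsf1a, the main receptor of TNF on most cells, stood at 76.7, 95.6 and 93.2 RPKM in controls and 108, 107 and 116 RPKM in knockouts, a difference of 1.24-fold with no overlap (log2 change 0.32, SE 0.14, limma adjusted p = 0.169). Tnfrsf1b, the second TNF receptor, had 7.34 ± 1.69 and 9.94 ± 0.887 RPKM (log2 change 0.43, SE 0.19, limma adjusted p = 0.165). Il1r1, the signalling receptor of interleukin-1, had 7.13 ± 1.76 and 8.75 ± 0.587 RPKM, with overlap (log2 change 0.30, SE 0.19). Cd40, a receptor of the non-canonical branch, pointed down, at 17.7, 30.7 and 23.2 RPKM in controls and 14.0, 17.7 and 16.7 RPKM in knockouts (log2 change -0.52, SE 0.21, limma adjusted p = 0.137). Tnfrsf11b, which encodes the decoy receptor osteoprotegerin, stayed under the filter at 2, 27 and 3 reads in controls and 42, 29 and 48 in knockouts. With no filter its log2 change was 0.47 (SE 0.12, limma adjusted p = 0.0612).

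Among 6 adaptors and ubiquitin ligases, 3 rose and 3 did not pass. Traf1, an adaptor that is itself induced by NF-kappaB, stood at 1.93, 1.94 and 1.65 RPKM in controls and 6.88, 12.4 and 11.2 RPKM in knockouts. The controls lay close together and far under every knockout, and the mean rose 5.54-fold (log2 change 2.15, SE 0.23, limma adjusted p = 0.00286). Traf2, which recruits ubiquitin ligases to TNF receptors, rose 1.40-fold, from 10.9 ± 0.817 to 15.3 ± 0.967 RPKM (log2 change 0.47, SE 0.12, limma adjusted p = 0.0426). Myd88, the adaptor of Toll-like and interleukin-1 receptors, rose 1.34-fold, from 16.9 ± 1.01 to 22.7 ± 0.329 RPKM (log2 change 0.41, SE 0.11, limma adjusted p = 0.0458). Both small changes had no overlap, but both lost the call without any single library and under quantile and trimmed-mean scaling. Both also lost it with no mean-variance trend and with replicate number as a block, and Myd88 also with a filter at 2 RPKM and by voom.

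Irak3, an inhibitory kinase-like protein of that receptor family, had 2.47 ± 0.298 and 4.12 ± 0.873 RPKM, with no overlap, and did not pass (log2 change 0.63, SE 0.19, limma adjusted p = 0.0693). Traf3, which restrains the non-canonical branch, had 8.24, 9.24 and 8.06 RPKM in controls and 9.19, 10.4 and 10.5 RPKM in knockouts (log2 change 0.23, SE 0.13). Birc3, a ubiquitin ligase of the TNF receptor complex, had 12.1, 14.4 and 22.4 RPKM in controls and 14.4, 20.4 and 17.7 RPKM in knockouts, with full overlap (log2 change 0.13, 95% interval -0.42 to 0.69), and its sign turned without control replicate 1.

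The IKK kinases differed. Ikbke, a kinase related to TBK1, stood at 1.54, 1.30 and 1.46 RPKM in controls and 3.54, 5.52 and 4.82 RPKM in knockouts, and rose 3.23-fold (log2 change 1.39, SE 0.19, limma adjusted p = 0.0061). Ikbkb, the main kinase of the canonical branch, was far more abundant and overlapped, at 42.7 ± 2.48 and 37.0 ± 6.22 RPKM (log2 change -0.22, SE 0.15, 95% interval -0.56 to 0.13, limma adjusted p = 0.366).

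Of the 5 NF-kappaB subunits, 1 rose and 4 did not pass. Nfkb2, the subunit of the non-canonical branch, stood at 14.5, 18.3 and 20.7 RPKM in controls and 27.2, 41.2 and 33.6 RPKM in knockouts. The groups did not overlap, and the mean rose 1.90-fold (log2 change 0.90, SE 0.19, limma adjusted p = 0.0246), though it did not pass when control replicate 1, control replicate 2 or knockout replicate 2 was left out. Relb, its usual partner, had 15.6, 15.8 and 19.6 RPKM in controls and 20.8, 28.4 and 21.7 RPKM in knockouts, also with no overlap, and did not pass (log2 change 0.46, SE 0.16, limma adjusted p = 0.102).

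The canonical subunits overlapped between the groups. Nfkb1 had 22.5, 31.5 and 25.9 RPKM in controls and 26.9, 38.9 and 36.9 RPKM in knockouts (log2 change 0.35, SE 0.19, limma adjusted p = 0.249). Rela had 36.1, 39.6 and 44.3 RPKM in controls and 38.1, 49.9 and 45.2 RPKM in knockouts (log2 change 0.14, 95% interval -0.19 to 0.48, limma adjusted p = 0.546). Rel, the subunit best known from lymphoid and myeloid cells, was low, with 22, 137 and 62 reads in controls and 116, 121 and 228 in knockouts (0.612 ± 0.400 and 1.22 ± 0.268 RPKM, log2 change 0.68, SE 0.30, limma adjusted p = 0.169).

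Among the 6 IkB proteins and other inhibitors, 3 rose and 3 did not pass. Nfkbiz encodes a nuclear IkB protein that acts as a cofactor at some NF-kappaB targets. It stood at 5.46, 4.14 and 5.58 RPKM in controls and 12.1, 20.3 and 16.6 RPKM in knockouts, and rose 3.23-fold (log2 change 1.58, SE 0.21, limma adjusted p = 0.0058). Nfkbie, which encodes the cytoplasmic inhibitor IkB epsilon, had 10.9, 14.9 and 13.6 RPKM in controls and 20.7, 23.5 and 25.8 RPKM in knockouts. It rose 1.78-fold (log2 change 0.81, SE 0.15, limma adjusted p = 0.0166), with the call lost without knockout replicate 2. Tnip1, a partner of A20, rose 1.49-fold, from 21.3 ± 1.16 to 31.7 ± 3.25 RPKM (log2 change 0.56, SE 0.12, limma adjusted p = 0.0258). It lost the call without any single control library or knockout replicate 2, under trimmed-mean scaling and with replicate number as a block.

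Nfkbia, which encodes the main feedback inhibitor IkB alpha, was the most abundant of the 37 genes in controls and was uneven among them. It stood at 76.3, 85.3 and 181 RPKM in controls and 67.7, 115 and 116 RPKM in knockouts, with overlap, control replicate 3 being highest (log2 change -0.13, SE 0.36, 95% interval -0.97 to 0.71, limma adjusted p = 0.846). Its sign turned without control replicate 3, to 0.26, and without knockout replicate 1, to 0.13. Nfkbib, which encodes IkB beta, had 12.1 ± 1.60 and 11.7 ± 1.27 RPKM (log2 change -0.04, 95% interval -0.39 to 0.30), and its sign turned without control replicate 1 or knockout replicate 3. Tnfaip3, which encodes A20, had 3.35, 5.48 and 5.90 RPKM in controls and 7.17, 14.3 and 10.9 RPKM in knockouts. Its groups did not overlap and its means differed 2.19-fold, but it did not pass (log2 change 1.04, SE 0.29, limma adjusted p = 0.0535). It passed without knockout replicate 1 and with replicate number as a block.

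Of the 3 products known to be induced by TNF, Icam1, an adhesion molecule that binds leukocyte integrins, rose. It stood at 14.8, 11.5 and 14.0 RPKM in controls and 50.9, 64.5 and 44.3 RPKM in knockouts, a 3.96-fold rise (log2 change 1.94, SE 0.17, limma adjusted p = 0.00206). Every knockout library was over 3 times the control mean of 13.4 RPKM. Tnfaip2 had 38.1, 54.2 and 44.3 RPKM in controls and 54.1, 64.6 and 83.0 RPKM in knockouts, and did not pass (log2 change 0.55, SE 0.20, limma adjusted p = 0.109). Tnfaip8 overlapped, at 29.4 ± 5.59 and 24.7 ± 2.91 RPKM (log2 change -0.23, SE 0.17, limma adjusted p = 0.401).

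**Figure D3:**
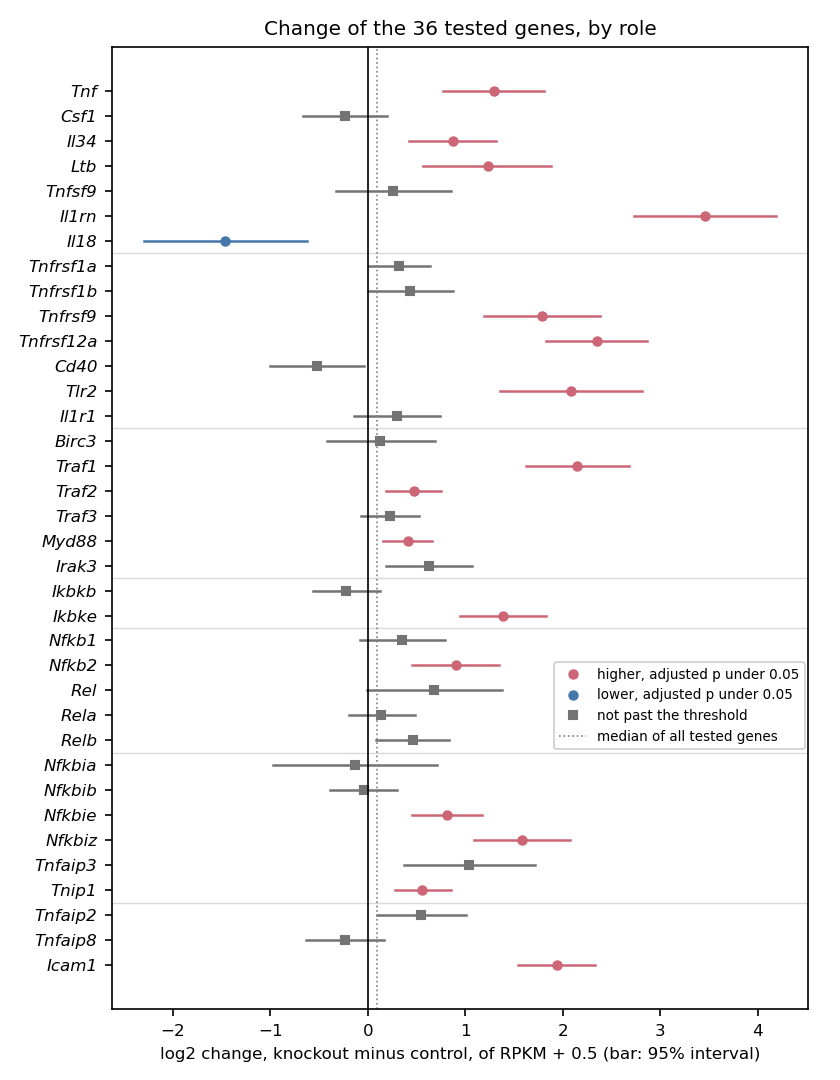
Log2 change of RPKM + 0.5, knockout minus control, with its 95% interval from limma, for the 36 tested genes in the order of their roles; the dotted line is the median of all tested genes, 0.097. Il1rn has the largest change on this scale (3.46), which understates that of Tnfrsf9 (1.79, at 0.0198 RPKM in controls), and Il18 is the gene called lower (-1.46).

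In levels per length, which allow genes to be compared, the control order ran from Nfkbia (114 ± 58.1 RPKM), Tnfrsf1a (88.5 ± 10.3), Csf1 (63.4 ± 10.3), Tnfaip2 (45.5 ± 8.11) and Ikbkb (42.7 ± 2.48) down to Tnf, Il1rn, Tnfrsf11b and Tnfrsf9, all under 0.5 RPKM. Nfkbia and Tnfrsf1a overlapped in controls, as did Csf1 and Tnfaip2, and so did Tnfaip2, Ikbkb and Rela. The order within each of these groups is not resolved. In knockouts Tnfrsf12a (141 ± 27.6) stood first, ahead of Tnfrsf1a (110 ± 5.08) and Nfkbia (99.6 ± 27.6), and its lowest library overlapped with both. Icam1 and Il18 tied at rank 17 in controls on rounded means, both at 13.4 RPKM. In knockouts Icam1 ranked 6 and Il18 ranked 30.

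Related genes were set against each other inside each library, where depth and library scaling cancel. These 8 ratios were chosen after the values were seen, and most have a gene called higher on top, so their separation is no new test. Nfkb2 over Nfkb1 was 0.644, 0.583 and 0.801 in controls and 1.01, 1.06 and 0.911 in knockouts, so that the non-canonical subunit went from under to about the level of the canonical one. Relb over Rela was 0.433, 0.399 and 0.441 in controls and 0.548, 0.569 and 0.481 in knockouts. Nfkbie over Nfkbia was 0.143, 0.175 and 0.0750 in controls and 0.306, 0.204 and 0.222 in knockouts.

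The wider gaps lay between other pairs. Ikbke over Ikbkb was 0.0337 ± 0.00469 in controls and 0.125 ± 0.0220 in knockouts. Traf1 over Traf2 was 0.169 ± 0.0160 and 0.660 ± 0.168, and Tnfrsf12a over Tnfrsf1a was 0.319 ± 0.115 and 1.28 ± 0.256. Il34 over Csf1 was 0.378, 0.372 and 0.528 in controls and 0.769, 1.44 and 0.671 in knockouts. For these 7 ratios the groups did not overlap, which gives an exact two-sided permutation p of 0.1, the smallest that 3 against 3 libraries allow (0.114 after Benjamini-Hochberg adjustment over 8 ratios). Tnfrsf1b over Tnfrsf1a overlapped, at 0.0822 ± 0.0103 and 0.0903 ± 0.00527 (exact permutation p = 0.2, adjusted 0.2).

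**Figure D4:**
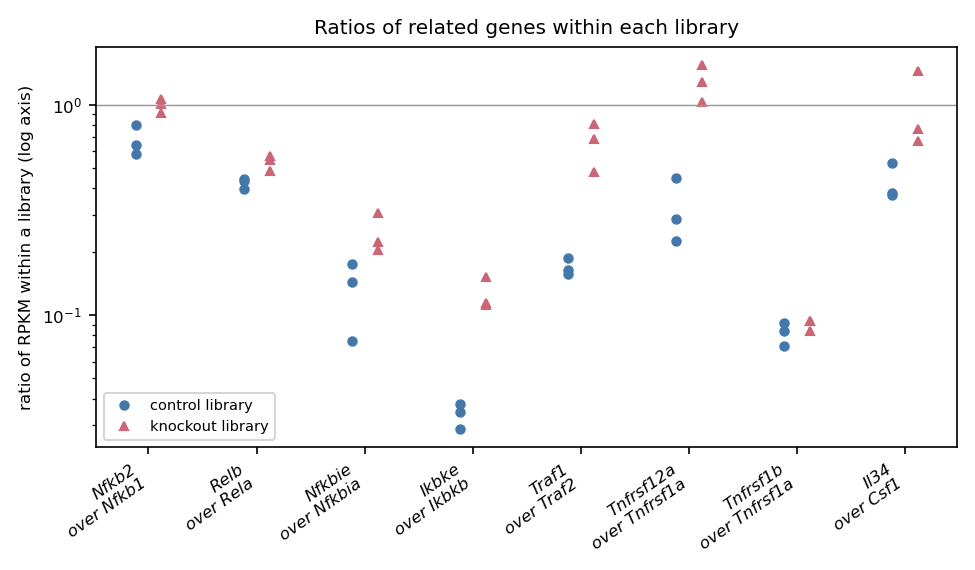
Ratio of the RPKM of 2 related genes within each library, on a log axis, with 1 point per library. The knockout libraries are above the controls for 7 of the 8 ratios and overlap for Tnfrsf1b over Tnfrsf1a.

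Wider lists of the pathway, 119 genes beyond the 37, were read with the same fit. For their genes, losses of a call are given mainly for libraries left out. Of these 88 passed the filter, and 18 rose (20.5%, against 9.98% of all genes tested) and 3 fell (3.41%, against 3.48%). Il33, Tnfaip8l2, Bcl2a1b and Tlr13 passed it through their knockout libraries alone and Ngfr through its controls alone. Among the 83 genes at 0.5 RPKM or more in both groups, 15 rose (18.1%, against 7.98% of all such genes) and 3 fell (3.61%, against 3.43%), with a median log2 change of 0.17. Counts in the lists below are over these genes. Of 31 other TNF superfamily ligands and receptors 17 were counted, and 2 rose and 2 fell (11.8% each way, against 7.98% and 3.43%). Tnfsf12, which encodes TWEAK, the ligand of the Tnfrsf12a receptor, fell from 35.1, 34.3 and 35.7 RPKM to 22.1, 18.4 and 23.2 RPKM (log2 change -0.72, SE 0.12, limma adjusted p = 0.0126), while its receptor rose. The call was lost without knockout replicate 2. Tnfsf13, which encodes the B cell factor APRIL and sits beside Tnfsf12, also fell (log2 change -0.65, limma adjusted p = 0.0379), a call lost without any single library; a read-through gene shares exons with both, so their reads may be split. Tnfrsf10b, a death receptor for TRAIL, rose 2.99-fold and Tnfsf15, a ligand known for endothelial expression, 4.51-fold, the latter losing its call without any single control library or knockout replicate 2 and under quantile normalization.

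Among 28 tested adaptors, kinases and ubiquitin enzymes 2 rose and 0 fell (7.14% higher), a share near that of all genes. Map3k14, which encodes NIK, the kinase of the non-canonical branch, rose 1.58-fold (log2 change 0.60, SE 0.14, limma adjusted p = 0.0345), and Card9, an adaptor of myeloid cells, rose 3.68-fold (log2 change 1.26, SE 0.31, limma adjusted p = 0.0402). Both lost the call without any single library except knockout replicate 1. Of 10 further inhibitors and nuclear IkB proteins 2 rose (20.0%, against 7.98% of all such genes). Bcl3, a nuclear IkB protein, rose from 5.28, 5.22 and 5.84 RPKM to 20.9, 35.4 and 27.6 RPKM (5.14-fold, log2 change 2.23, SE 0.19, limma adjusted p = 0.00206). Nfkbid rose 2.09-fold, a call lost without any single library except knockout replicate 1. Tnfaip8l2, not in that count, was at 0.406 ± 0.182 and 1.34 ± 0.490 RPKM.

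In the Toll-like receptor and interleukin-1 family, 3 of 16 rose (18.8%, against 7.98% of all such genes) and 1 fell (6.25%, against 3.43%). Cd14, a coreceptor for bacterial lipids, rose 6.24-fold, from 8.77 ± 1.43 to 54.7 ± 24.6 RPKM. Il33, an alarmin cytokine outside that count, was at 0.332 ± 0.104 RPKM in controls and 3.62 ± 0.226 RPKM in knockouts. Il18bp, which encodes the secreted inhibitor of interleukin-18, rose 1.69-fold, and Tirap, an adaptor for Tlr2, rose 1.67-fold; both lost the call without knockout replicate 2, control replicate 3 and knockout replicate 1, Il18bp also without control replicate 2, and Tirap also without control replicate 1 and knockout replicate 3. Tlr7, an endosomal receptor for RNA, fell from 10.5, 10.2 and 4.82 RPKM to 2.85, 1.42 and 1.73 RPKM (log2 change -1.82, SE 0.33, limma adjusted p = 0.015), with the call lost without knockout replicate 2.

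Other NF-kappaB target genes rose in 6 of 12, with 0 lower and a median log2 change of 0.79. Sele, the endothelial adhesion molecule E-selectin, rose from 3.37, 2.35 and 1.81 RPKM to 16.5, 13.1 and 13.5 RPKM (5.72-fold, log2 change 2.33, SE 0.21, limma adjusted p = 0.00206). Vcam1, another adhesion molecule, rose 3.54-fold to 114 ± 46.3 RPKM, Plau, which encodes urokinase, 2.37-fold to 300.0 ± 54.0 RPKM, and Ptgs2, which encodes a prostaglandin synthase, 3.85-fold to 2.52 ± 0.711 RPKM. The call of Ptgs2 was lost without knockout replicate 2. Ier3 rose 1.86-fold, and did not pass when control replicate 2, control replicate 3 or knockout replicate 2 was left out. Gadd45b rose 2.13-fold (log2 change 1.00, SE 0.26, limma adjusted p = 0.0477), a call kept in only 3 of 15 alternatives. Bcl2a1b, outside that count and one of a family of near-identical copies, was at 0.0786 ± 0.0806 and 1.52 ± 1.02 RPKM, and its value is uncertain for that reason.

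**Figure D5:**
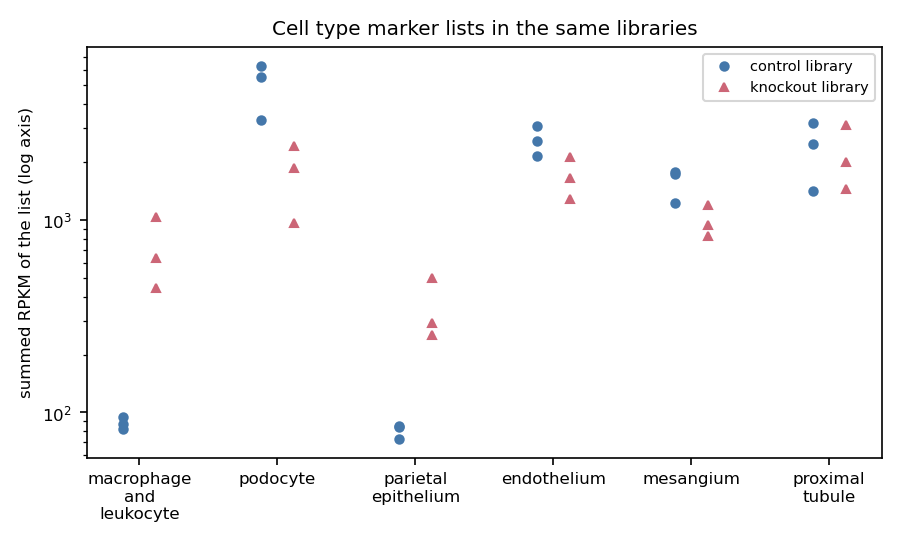
Summed RPKM of 6 lists of cell type markers, on a log axis, with 1 point per library. Macrophage and leukocyte markers (82.4 to 95.1 against 444 to 1041 RPKM) and parietal epithelial markers are higher in every knockout library, podocyte, mesangial and endothelial markers are lower in every one, and proximal tubule markers overlap.

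The plot of marker sums sets these changes beside the cells that the libraries held. Ptprc, the pan-leukocyte antigen CD45, stood at 1.29, 2.79 and 1.06 RPKM in controls and 3.28, 6.83 and 5.49 RPKM in knockouts. The B cell markers Cd79a and Ms4a1 were at 0.025 to 0.588 RPKM over all libraries and overlapped between the groups, and the T cell marker Cd3e was at 0.284 ± 0.0641 and 0.591 ± 0.154 RPKM. S100a8, a neutrophil gene, was at 13.1 ± 4.05 RPKM in controls and 4.49 ± 3.48 RPKM in knockouts. Endothelial markers had 0 of 10 called either way, with sums of 2148 to 3091 and 1279 to 2122 RPKM that did not overlap, while the endothelial gene Sele rose. Mesangial markers fell in 3 of 9 tested (33.3%, against 3.48% of all genes tested) and rose in 1 (11.1%, against 9.98%). Their sums were 1219 to 1784 RPKM in controls and 825.6 to 1193 RPKM in knockouts, also with no overlap. The genes that rose most, among them Il1rn, Tlr2 and Traf1, were higher in every knockout library, as the leukocyte and parietal sums were. Those genes were picked for their rise, so the likeness is no test of where their RNA came from. These libraries do not tell which cells made the RNA.

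The counting was not stated to use strand. Exons of 10 of the 37 genes overlap another gene on the opposite strand in the GENCODE M21 annotation, among them Nfkb2 with Psd, Il34 with Gm15894 and Gm15895, Myd88 with Acaa1a and Icam1 with Gm47079, so reads of the partners cannot be told apart there. Rises in Il1rn, Tnfrsf9, Tnfrsf12a, Traf1, Tlr2 and Nfkbiz have no such overlap in that annotation.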

How the data were processed

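Total RNA from isolated glomeruli was sequenced in 6 libraries, 3 per group. The deposited table gives the authors' RPKM values, made with FastQC, STAR, featureCounts and edgeR on mm10 per the submitters' processing notes. Tool versions, the annotation and the use of strand were not given in the sources used here. RPKM ratios between libraries gave whole reads for 24062 of 24062 rows (tolerance 0.001 read), and so the depth, at which 1 read in 1 kb is worth 0.0172 to 0.0257 RPKM. Intervals from reads cover counting error only. The 27 rows with a date in place of a symbol were left out.

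The fit was limma 3.58.1 (R 4.3.3) on log2(RPKM + 0.5), with a mean-variance trend, no covariate, two-sided tests and Benjamini-Hochberg adjustment over the 13912 genes that averaged 0.5 RPKM or more. It was tried on simulated data with the same spread beyond counting error for every gene. Few genes were changed there, all at 2 RPKM or more. Most changes of 2-fold were recovered, most of 1.5-fold were missed, and the share of false calls was above the nominal 0.05. Many more genes were called in the real data, so these shares need not hold there, and changes of lower genes were not covered. Small calls and genes that did not pass stay uncertain. A fold is the ratio of mean RPKM, and the log2 scale understates changes of low genes. Exact permutation tests used scipy 1.17.1. Positions came from GENCODE M21 and promoters from RefSeq GRCm38.p6, the assembly of mm10.

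The members and lists were chosen with earlier results of these data known. All members, called genes of the wider lists (up to 6 per list by smallest p, and Gadd45b), Klf4 and marker genes were named. Alternatives were pseudocounts of 0.1 and 1, no filter, a filter at 2 RPKM, quantile and trimmed-mean scaling, no trend, a replicate block, each library left out and, added after seeing the data, voom on recovered reads. The 2 planned count-model alternatives were not run, since RPKM are not counts. Of 20 macrophage and leukocyte markers, 19 matched a symbol.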

Additional observations from a re-analysis of the deposited data

How the results depend on the processing

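The count of member genes that rose was 12 to 16 under every alternative that kept all 6 libraries and 7 to 15 when 1 library was left out, against 16. The 12 with the replicate block and the 15 without knockout replicate 1 include Tnfaip3, which is not among the 16. Of the 16, 14 kept the call without knockout replicate 1. Members that fell numbered 0 with no filter on low values, with the replicate block and by voom, and 0 to 1 with 1 library left out, against 1. Over all genes, 1389 rose and 484 fell. A filter at 2 RPKM gave 841 higher, quantile normalization 849 higher and 798 lower, and trimmed-mean scaling 778 lower; the counts without 1 library were 474 to 1497 higher and 124 to 617 lower. Higher genes made up 74.2% of calls, 51.5% under quantile normalization and 57.3% under trimmed-mean scaling. These scalings moved the median log2 change of all genes by -0.145 and -0.124, and that of the members from 0.51 to 0.36 and 0.38. No called member changed sign.

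The labels do not say whether the replicate numbers pair the libraries. Same-numbered libraries had correlations of deviations of 0.175, -0.215 and -0.461. With 3 libraries per group, each set against its group mean, these values cannot settle pairing. The replicate block gave 632 higher and 179 lower genes and 12 higher members. Among the members, Ltb, Il34, Tnip1, Traf2, Myd88 and Il18 lost the call with it, and Tnfaip3 gained it.

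Signs turned for genes that did not pass. With 1 library left out the log2 change of Nfkbia ranged from -0.36 to 0.26 (positive without control replicate 3 or knockout replicate 1), that of Nfkbib from -0.13 to 0.051 (positive without control replicate 1 or knockout replicate 3), that of Birc3 from -0.051 to 0.38 (negative without control replicate 1) and that of Klf4 from -0.35 to 0.24 (negative without control replicate 1 or knockout replicate 2 or 3). Tnfsf9 turned under quantile normalization (-0.10), and Klf4 under quantile (-0.0098) and trimmed-mean (-0.12) scaling. The cause was not tested. The 2 planned count-model tests were not run. Depth limits Il1rn, Tnf, Tnfrsf9, Tnfrsf11b and Rel, which rest on as few as 1 to 22 reads in a library.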
